A study of Homo sapiens with 9 samples.

Results

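The comparison set 3 cultures exposed to sulforaphane for 24 h against 3 cultures exposed for 8 h, using 6 of the 9 arrays of the study and all 22011 transcript clusters on them. A transcript cluster is the array's unit for a gene, summarised from the probes over its exons. The cells were GM12878, a human lymphoblastoid line, that is, B lymphocytes made immortal with Epstein-Barr virus. It is a single line, cultured with 15% serum and plated at 900000 cells per ml. All 6 cultures received 10 µM D,L-sulforaphane, the isothiocyanate of broccoli sprouts, as the mixture of both mirror-image forms. RNA of each culture went on its own Affymetrix Human Exon 1.0 ST array. The remaining 3 arrays came from untreated cultures harvested at 0 h, and here they served only as a reference level. The treatment protocol also names a vehicle of 0.1% DMSO, and whether the 0 h cultures received it is not clear from the labels. No array came from cells kept for 8 h or 24 h without sulforaphane, so longer exposure and longer culture cannot be told apart.

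Sulforaphane reacts with cysteines of KEAP1, the protein that marks the transcription factor NRF2 for destruction, and freed NRF2 switches on genes for haem breakdown, glutathione synthesis and iron storage. Compounds that react with protein cysteines also call up the heat shock response, in which the factor HSF1 raises chaperone genes until the proteins are refolded. Genes for mitosis form another shared programme. They are held down early in the cell cycle and are raised in G2 and M phase, partly through a short promoter element called CHR, the cell cycle genes homology region. A lymphoblastoid culture grows without synchrony, so its RNA mixes cells of all phases. In such bulk RNA, fewer cells in a phase and less RNA per cell cannot be told apart.

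The 6 arrays had means of 8.05 to 8.14 on the log2 scale, with slightly higher overall signal at 24 h. Array medians were 8.09 to 8.13 at 24 h and 8.04 to 8.09 at 8 h. Upper quartiles were 9.51 to 9.63 at 24 h and 9.42 to 9.53 at 8 h. Correlations across clusters were 0.991 to 0.994 within a time and 0.988 to 0.993 between the times. Within a time, the standard deviation of a cluster had a median of 0.0912 at 8 h, 0.0919 at 24 h and 0.15 among the untreated arrays. Untreated replicate 2 had an upper-quartile signal of 9.28, against 9.49 and 9.54 on the other untreated arrays, and classes that use the untreated arrays are also given without it. B-cell markers were high at both times: the mean of 12 B-cell markers was 11.77 to 11.85 on the 8 h arrays and 11.82 to 11.90 on the 24 h arrays. Markers of plasma cells (9 genes), T and NK cells (16), myeloid cells (10), red cells and platelets (6) and fibroblasts and epithelia (11) had median differences between 0.01 and 0.07, and 0 of them or of the B-cell markers passed the test. At an unadjusted p below 0.05 they numbered 2, 2, 2, 0 and 1, beside 1 B-cell marker and 3405 of all 22011 clusters. T and NK cell markers averaged 7.02 to 7.09 at 8 h and 7.06 to 7.12 at 24 h.

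Between 8 h and 24 h the clearest change was a fall of mitotic genes, led by the kinase gene PLK1, while the chemokine gene CCL20 showed the largest rise among the genes that passed the test. Of 22011 clusters, 25 passed limma's moderated test at a Benjamini-Hochberg adjusted p below 0.05, which is 0.114%. Of these, 4 were higher at 24 h (0.0182% of clusters) and 21 were lower (0.0954%), and 14 differed by at least 2-fold. A total of 20 carried a single gene symbol: CCL20, IER3 and CLDN16 rose and 17 genes fell, 14 of them members of a list of mitosis and G2/M genes. The smallest adjusted p was 0.033, and 57 further clusters lay between 0.05 and 0.06, 15 of them mitosis genes, so many genes sat just outside the threshold. At an unadjusted p below 0.05 there were 2409 higher and 996 lower clusters. With the spread taken from all 9 arrays, 72 clusters passed, 22 higher (0.100%) and 50 lower (0.227%), and 20 of the 25 were among them. In fits that left out any 1 of the 6 arrays, 0 clusters passed, with 2247 to 4249 at an unadjusted p below 0.05. None of the 25 overlapped between the times, so their direction could not change when 1 array was left out. All 25 kept an unadjusted p below 0.05, but they had been chosen for small p on these same arrays. Genes below are said to have risen or fallen only where they passed in the fit of 6 arrays, and differences are log2 values with their standard error.

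**Figure D1:**
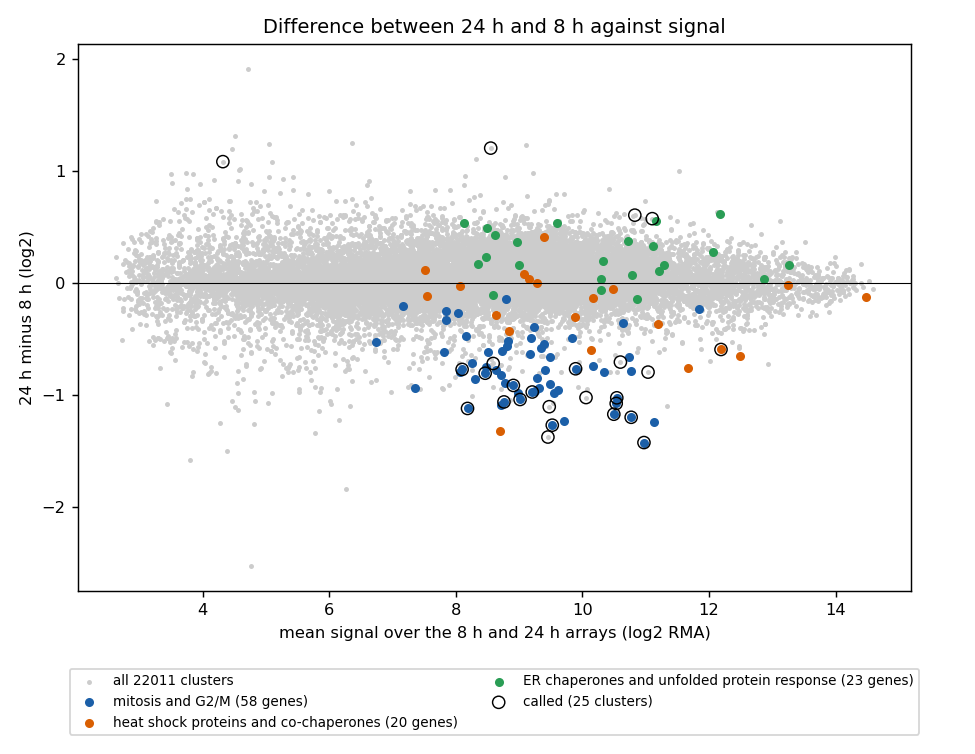
Difference between 24 h and 8 h (vertical axis, log2) against the mean signal over those 6 arrays (horizontal axis, log2 RMA); each point is 1 of 22011 clusters, coloured points are members of 3 gene lists and black rings mark the 25 clusters that passed the test. All 58 mitosis genes lie below 0, while 20 of the 23 ER chaperone genes lie above it.

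Promoters of 4 of the fallen mitotic genes are shown because they carry the CHR letters close to their start. Each sequence is the 250 bases before the RefSeq transcription start (build GRCh38.p14), read 5′ to 3′ along the gene, with TTTGAA in capitals. The PLK1 promoter is chr16:23678639-23678888 on the plus strand, that of the cyclin gene CCNB2 is chr15:59104896-59105145 on the plus strand, that of the proliferation marker MKI67 is chr10:128126424-128126673 on the minus strand, and that of the centromere histone gene CENPA is chr2:26785806-26786055 on the plus strand.
PLK1: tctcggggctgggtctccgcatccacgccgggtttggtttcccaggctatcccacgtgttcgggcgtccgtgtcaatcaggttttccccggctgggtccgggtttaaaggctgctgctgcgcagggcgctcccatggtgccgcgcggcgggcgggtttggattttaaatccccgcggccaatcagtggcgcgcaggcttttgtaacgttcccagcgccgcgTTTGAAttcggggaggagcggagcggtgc
CCNB2: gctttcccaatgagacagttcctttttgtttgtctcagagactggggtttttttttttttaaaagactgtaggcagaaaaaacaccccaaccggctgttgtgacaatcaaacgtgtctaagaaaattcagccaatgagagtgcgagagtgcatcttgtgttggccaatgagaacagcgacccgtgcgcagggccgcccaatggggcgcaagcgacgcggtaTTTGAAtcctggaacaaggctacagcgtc
MKI67: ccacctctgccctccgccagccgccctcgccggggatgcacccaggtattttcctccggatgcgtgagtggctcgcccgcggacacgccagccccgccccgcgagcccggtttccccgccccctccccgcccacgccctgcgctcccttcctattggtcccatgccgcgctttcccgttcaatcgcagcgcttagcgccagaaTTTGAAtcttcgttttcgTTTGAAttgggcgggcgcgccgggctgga
CENPA: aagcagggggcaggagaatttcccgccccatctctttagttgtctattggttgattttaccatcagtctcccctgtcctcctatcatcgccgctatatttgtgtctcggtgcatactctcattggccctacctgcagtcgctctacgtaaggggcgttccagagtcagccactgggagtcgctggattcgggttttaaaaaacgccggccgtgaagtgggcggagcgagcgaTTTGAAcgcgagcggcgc
The first T of the element lies 29 bases before the start in PLK1 and in CCNB2 and 18 before it in CENPA. MKI67 holds it 47 and 29 bases before the start, and the farther match overlaps a GAANNTTC match. In windows from 250 bases before to 50 after the start, TTTGAA on either strand was present in 31 of the 48 mitosis genes with a promoter sequence (64.6%), against 11.7% of the 11386 measured genes with one. CCAAT, the box that often lies upstream of a CHR, was present in 75% of the same mitosis genes and in 36.5% of all. The E2F letters TTTGGCGC and TTTCGCGC were each in only 1 of these 48 mitosis genes (2.08%), against 0.861% and 0.755% of all. A match of letters is a description and not a binding site.

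Among the kinases and cyclins that drive entry into mitosis, 4 genes fell. PLK1, the polo-like kinase that acts at centrosomes, kinetochores and the cleavage furrow, measured 11.75, 11.55 and 11.75 on the 8 h arrays and 10.11, 10.31 and 10.36 on the 24 h arrays. The times did not overlap, and PLK1 fell by 1.42 ± 0.09 or 2.68-fold (limma adjusted p = 0.033). CCNB2, a B-type cyclin that activates CDK1, went from 10.16 ± 0.14 (SD, n = 3) to 8.89 ± 0.10, a fall of 1.27 ± 0.09 (limma adjusted p = 0.033). AURKA, the Aurora kinase of the spindle poles, fell by 0.91 ± 0.06 from 9.36 to 8.45. AURKB, the Aurora kinase of the chromosomal passenger complex, was tight at 8 h, with 11.06, 11.06 and 11.08, and measured 9.82, 10.11 and 10.06 at 24 h. It fell by 1.07 ± 0.08. Other members of the same machinery gave differences of like size without passing: the difference was -1.08 ± 0.14 for CDK1 (adjusted p = 0.064) and -0.90 ± 0.10 for CCNB1 (adjusted p = 0.059), and both had no overlap between the times.

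Genes of the spindle and kinetochore made up the next group. TPX2, which activates AURKA and nucleates spindle microtubules, measured 11.05, 11.01 and 11.18 at 8 h and 9.85, 9.92 and 9.96 at 24 h. All 3 arrays at 24 h lay about 1 unit below the lowest at 8 h, and TPX2 fell by 1.17 ± 0.07 or 2.25-fold. NDC80 and NUF2 encode partners in the outer kinetochore complex that grips microtubules. NDC80 fell by 1.12 ± 0.08 (8.74 to 7.63) and NUF2 by 0.77 ± 0.07 (8.48 to 7.71). KNL1, the kinetochore scaffold that recruits the checkpoint kinases, fell by 1.04 ± 0.07. CENPA, the histone H3 variant that marks centromeres, measured 10.33, 10.27 and 10.22 at 8 h and 9.57, 9.40 and 9.56 at 24 h, a fall of 0.76 ± 0.06 (limma adjusted p = 0.042). TROAP, a spindle-pole protein, fell by 0.97 ± 0.06 and GTSE1, a microtubule-binding protein of G2 and M phase, by 0.80 ± 0.07. KIF18A, a kinesin that limits chromosome swings at the metaphase plate and is not on the list, fell by 0.72 ± 0.06 (adjusted p = 0.042).

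Chromatin and ubiquitin-linked genes of the programme completed the falls. MKI67, which encodes the Ki-67 coat protein of mitotic chromosomes, measured 11.34, 11.26 and 11.50 at 8 h and 10.05, 10.19 and 10.27 at 24 h. It fell by 1.20 ± 0.09 or 2.29-fold (limma adjusted p = 0.038). TOP2A, the topoisomerase that untangles sister chromatids, fell by 1.02 ± 0.09 (11.05 to 10.03). CDCA3, an adaptor that helps degrade the mitosis inhibitor WEE1, fell by 1.06 ± 0.09. PRR11, a proline-rich protein expressed late in the cell cycle and not on the list, fell by 1.02 ± 0.09 (10.57 to 9.55).

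**Figure D2:**
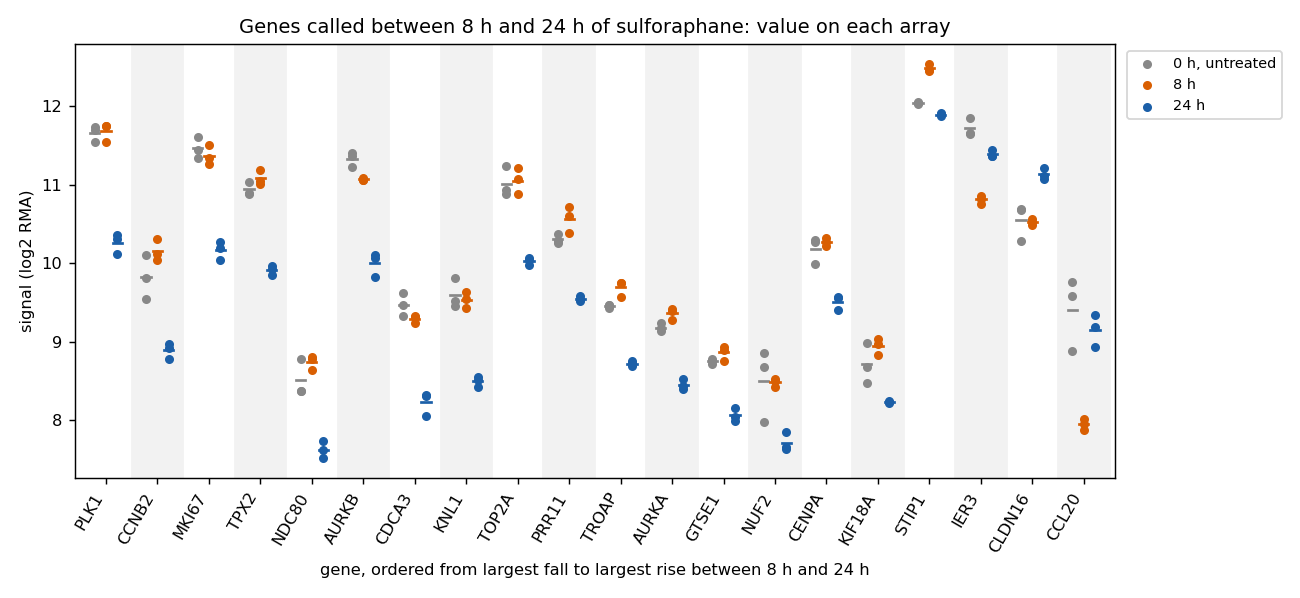
Signal (vertical axis, log2 RMA) of the 20 genes that passed the test, with 1 point per array, short bars for group means and untreated arrays in grey, 8 h in orange and 24 h in blue; genes run from the largest fall to the largest rise. For 16 genes from PLK1 to KIF18A the blue points lie below both other groups, whereas for STIP1, IER3 and CCL20 the orange points stand apart.

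The mitosis list had 69 genes, of which 58 had a cluster of their own, and all 58 were lower at 24 h than at 8 h. Of these, 14 fell, 0 rose, and 44 did not pass, against 0.0954% of all clusters called lower and 0.0182% called higher. The 24 h arrays lay wholly below the 8 h arrays for 56 of the 58 (96.6%), against 6.40% of all clusters that were lower without overlap and 15.2% that were higher without overlap. CKS2 and PIF1 were the members that overlapped. The median difference of the list was -0.78, with a range from -1.42 to -0.14, against a median of 0.03 over all 14232 genes, of which 8709 were higher and 5507 lower. A total of 12 members were at least 2-fold lower. In the fit of 9 arrays 21 members passed, against 0.227% of all clusters called lower. With quantile normalization or median centring 40 and 38 members passed. Of all 22011 clusters, 97 and 94 were then called lower. All 58 stayed lower under both rescalings, and without any 1 of the 6 arrays 0 passed.

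Members that did not pass include regulators of the programme itself. FOXM1, a transcription factor that activates CHR promoters, had a difference of -0.98 ± 0.10 (limma adjusted p = 0.059), and MYBL2, its partner, of -0.66 (adjusted p = 0.15). CDC20, the activator of the anaphase-promoting complex, went from 11.75 ± 0.23 to 10.51 ± 0.13 and DLGAP5, a kinetochore-fibre protein, from 10.32 ± 0.21 to 9.09 ± 0.14, both at an adjusted p of 0.059. In each of these genes the lowest array at 8 h was above the highest at 24 h. The survivin gene BIRC5 had a difference of -0.93 (adjusted p = 0.053) and the spindle midzone gene PRC1 of -0.95 (adjusted p = 0.059). FOXM1, CDC20, DLGAP5, BIRC5 and PRC1 passed in the fit of 9 arrays, at adjusted p from 0.0081 to 0.022. The smallest differences belonged to PSRC1 (-0.20), MAD2L1 (-0.24) and G2E3 (-0.27), whose arrays did not overlap, and to the overlapping PIF1 and CKS2.

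The mitotic genes stood near the untreated level at 8 h and below it at 24 h. Over the list, the median difference from the untreated arrays was 0.03 at 8 h and -0.74 at 24 h. All 3 comparisons share arrays, so these values stand side by side and do not support each other. PLK1 averaged 11.66 untreated, 11.68 at 8 h and 10.26 at 24 h. AURKB and CDCA3 differed from that pattern, with 8 h arrays already below every untreated array: AURKB averaged 11.33, 11.07 and 10.00, and CDCA3 9.47, 9.29 and 8.23. AURKA, TROAP and PRR11 had 8 h arrays above every untreated array and 24 h arrays below, as in AURKA at 9.18, 9.36 and 8.45.

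Genes of DNA synthesis had smaller differences, and 0 of them passed limma's test. Of 60 measured genes for DNA replication and G1/S, 10 were higher without overlap (16.7%, against 17.6% of all genes) and 12 lower (20%, against 5.63%), with a median difference of -0.04. At an unadjusted p below 0.05 there were 10 higher and 11 lower. CCNE2, the E-type cyclin that starts S phase, measured 7.40, 7.15 and 7.44 at 8 h and 7.84, 8.00 and 7.98 at 24 h, a difference of 0.61 ± 0.10 (limma adjusted p = 0.099). Its untreated mean was 8.50, so the 24 h arrays lay between the 8 h and the untreated level. MCM6, a subunit of the replicative helicase, had a difference of 0.46 ± 0.07 (adjusted p = 0.083) and CDC6, the loader of that helicase, of 0.30 ± 0.10 (adjusted p = 0.25). On the lower side stood FANCI, a DNA crosslink repair protein, at -0.58 ± 0.08 (adjusted p = 0.077), and the ribonucleotide reductase gene RRM1 at -0.48. The list's median lay -0.35 from the untreated arrays at 8 h and -0.40 at 24 h.

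Replication-dependent histone genes, which are transcribed in S phase, were mostly lower at 24 h. Of 41 measured, 35 had a difference below 0, 21 were lower without overlap (51.2%, against 5.63% of all genes) and 0 were higher without overlap (against 17.6%), and the median was -0.31. None passed in either fit, and 22 had an unadjusted p below 0.05. H2BC7 measured 13.10, 12.97 and 12.98 at 8 h and 12.58, 12.56 and 12.74 at 24 h, a difference of -0.39 ± 0.07 (limma adjusted p = 0.12). H2AC8 had a difference of -0.39 ± 0.06 (adjusted p = 0.10). Histone genes are near-identical copies, so probes can share signal between them and single members are uncertain.

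Where heat shock genes differed without overlap between the times, nearly all were lower at 24 h. STIP1, the co-chaperone that joins HSP70 to HSP90, measured 12.54, 12.44 and 12.47 at 8 h and 11.87, 11.91 and 11.90 at 24 h. It fell by 0.59 ± 0.05 or 1.51-fold (limma adjusted p = 0.040) and ended just under its untreated arrays, which read 12.05, 12.04 and 12.02. Of 20 measured heat shock genes of 28 on the list, STIP1 alone passed, against 0.0954% of all clusters called lower. Without overlap, 8 were lower (40%, against 5.63% of all genes) and 1 was higher (5%, against 17.6%), the factor gene HSF1 itself, with a difference of 0.42 ± 0.14 (adjusted p = 0.26). The list's median was -0.12.

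Other members that were lower without overlap included HSPH1, HSP90AA1, DNAJB1 and BAG3. HSPH1, the HSP110 exchange factor of HSP70, read 12.04, 11.95 and 12.13 at 8 h against 11.39, 11.19 and 11.28 at 24 h, a difference of -0.75 ± 0.08 (limma adjusted p = 0.057). Its untreated arrays lay between 10.98 and 11.23, so the 24 h mean of 11.29 was near them. HSP90AA1, the inducible HSP90, went from 12.81 ± 0.17 to 12.16 ± 0.09 and met its untreated mean of 12.16 (difference -0.64, adjusted p = 0.091). DNAJB1, the HSP40 partner of HSP70, had a difference of -0.60 ± 0.10 (adjusted p = 0.10). BAG3, which links chaperones to selective autophagy, differed by -0.43 ± 0.06 (adjusted p = 0.076). STIP1, HSPH1, HSP90AA1 and BAG3 passed in the fit of 9 arrays, 4 list members in all. Cluster 2902725, annotated to both HSPA1A and HSPA1B, has no single symbol and is not counted in the list. It averaged 9.28 untreated, 10.54 at 8 h and 9.60 at 24 h, without overlap between the times. Its difference was -0.94 ± 0.12 (limma adjusted p = 0.068, and 0.049 with 9 arrays). HSPA8, the constitutive HSP70, differed by -0.12 with overlapping arrays, and the mitochondrial chaperonins HSPD1 and HSPE1 by 0.08 and -0.02.

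CHORDC1, an HSP90 co-chaperone, had the largest difference of the list, -1.32 ± 0.23, but its spread was wide. It read 9.13, 9.26 and 9.70 at 8 h and 8.43, 7.73 and 7.96 at 24 h, which did not overlap, and did not pass (limma adjusted p = 0.11). Its untreated arrays spanned 7.27 to 8.78. Its promoter is shown because it held 3 matches to GAANNTTC, a pair of inverted heat shock element units, which begin 205, 60 and 50 bases before the start. The window is chr11:90223050-90223299 on the minus strand (GRCh38.p14, RefSeq), with the matches in capitals.
CHORDC1: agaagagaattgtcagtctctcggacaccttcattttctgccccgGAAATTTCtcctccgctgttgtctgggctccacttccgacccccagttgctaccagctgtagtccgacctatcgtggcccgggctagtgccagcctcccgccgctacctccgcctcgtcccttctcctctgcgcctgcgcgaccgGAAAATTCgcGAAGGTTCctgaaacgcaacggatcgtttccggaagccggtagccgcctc
GAANNTTC was in 6 of 18 heat shock promoters (33.3%), in 6.25% of mitosis promoters and in 5.28% of all. The promoter table held 18 of the 20 measured members. Matches were in CHORDC1, HSPA1L, HSPA8, HSPB1, DNAJA1 and SERPINH1. HSPA8, whose arrays overlapped between the times, held 2 matches. HSPH1, HSP90AA1 and DNAJB1, which were lower at 24 h without overlap, had no match.

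NRF2 target genes differed in both directions between 8 h and 24 h. Of 29 measured members of 38 listed, 0 passed in the fit of 6 arrays and the median difference was 0.07. Without overlap, 7 were higher (24.1%, against 17.6% of all genes) and 5 lower (17.2%, against 5.63%), and 5 in each direction had an unadjusted p below 0.05. HMOX1, the enzyme that opens the haem ring, measured 12.36, 12.28 and 12.45 at 8 h and 11.74, 11.59 and 11.68 at 24 h. The difference was -0.69 ± 0.07 or 1.62-fold lower (limma adjusted p = 0.052), and it passed in the fit of 9 arrays (adjusted p = 0.026). The untreated arrays read 8.77, 8.99 and 9.03, so at 24 h HMOX1 still lay 2.74 above the untreated mean. FTL, the ferritin light chain, showed the same order of levels, at 8.42 untreated, 10.83 at 8 h and 10.45 at 24 h (difference between the times -0.39, adjusted p = 0.19). FTL has processed copies in the genome, so its signal may be shared. Cluster 3696666, annotated to both NQO1 and NFAT5, is not counted in the list. It averaged 9.20 untreated, 10.71 at 8 h and 11.28 at 24 h, without overlap between the times. Its difference was 0.57 ± 0.07 (limma adjusted p = 0.059, and 0.048 with 9 arrays).

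The transporter and glutathione genes did not pass. SLC7A11, which imports cystine, read 9.58, 9.39 and 9.45 at 8 h and 8.98, 8.62 and 8.90 at 24 h, without overlap (difference -0.64, limma adjusted p = 0.11). GCLC and GCLM, which encode the subunits of the enzyme for the first step of glutathione synthesis, had differences of 0.17 ± 0.13 and 0.07 ± 0.13, with overlapping arrays and adjusted p of 0.57 and 0.83. GCLM's difference turned to -0.046 without 24 h replicate 1. The 24 h levels of GCLC and GCLM, 8.90 and 7.65, compare with 7.96 and 6.85 untreated. Untreated replicate 2 lowered both of these means: the untreated arrays read 8.22, 7.58 and 8.08 for GCLC and 7.28, 6.09 and 7.19 for GCLM. TXNRD1, the thioredoxin reductase, had a difference of -0.29 ± 0.11, and its 3 arrays at 24 h held the same value of 9.22, as happened for a treated group in 761 clusters. ME1, the cytosolic malic enzyme, went the other way, from 9.11 ± 0.08 to 9.53 ± 0.31 (adjusted p = 0.31). SRXN1 (-0.11) and PIR (0.11) differed little. The list's median stood 0.27 above the untreated arrays at 8 h and 0.29 above at 24 h.

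Chaperone genes of the endoplasmic reticulum (ER) had the highest median difference of the 24 lists on the deposited values, 0.20. With quantile normalization it was 0.16, below the 0.17 of the MHC class II list. Of 23 measured members, 20 had a difference above 0, as did 8709 of all 14232 genes. Without overlap, 12 were higher (52.2%, against 17.6% of all genes) and 1 lower (4.35%, against 5.63%). None passed in the fit of 6 arrays, 11 had an unadjusted p below 0.05, all higher, and 3 passed with 9 arrays. HSPA5, the main HSP70 of the ER, measured 11.90, 11.76 and 11.92 at 8 h and 12.57, 12.44 and 12.42 at 24 h, a difference of 0.62 ± 0.07 (limma adjusted p = 0.059). Its untreated arrays read 12.58, 12.45 and 12.41, the same range as at 24 h. MANF, a secreted ER stress protein, differed by 0.54 ± 0.07 (adjusted p = 0.060). HYOU1, the nucleotide exchange factor of HSPA5, differed by 0.38 ± 0.05 (adjusted p = 0.059), and its 24 h mean of 10.92 lay above the untreated mean of 10.71. DNAJB9 and DNAJB11, co-chaperones of HSPA5, differed by 0.54 and 0.55. The sensor gene ERN1 (-0.10) and XBP1 (0.07) overlapped between times. The list's median lay -0.17 from the untreated arrays at 8 h and 0.13 above them at 24 h.

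The genes that rose were CCL20, IER3 and CLDN16. CCL20, a chemokine for cells bearing CCR6, measured 8.01, 7.96 and 7.87 at 8 h and 9.19, 8.93 and 9.33 at 24 h. It rose by 1.21 ± 0.11 or 2.31-fold (limma adjusted p = 0.042), into the range of its untreated arrays at 8.88 to 9.76. The call was lost in the fit of 9 arrays (adjusted p = 0.083). IER3, an immediate early gene that responds to NF-kB, measured 10.82, 10.86 and 10.76 at 8 h and 11.37, 11.37 and 11.44 at 24 h. It rose by 0.58 ± 0.05 (limma adjusted p = 0.042) and stayed below its untreated arrays, which read 11.65 or more. CLDN16, a claudin best known from kidney tight junctions, rose by 0.61 ± 0.05 from 10.52 to 11.13. It had an untreated range of 10.29 to 10.69 and an adjusted p of 0.087 with 9 arrays.

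CCL20 and IER3 were the called members among 29 NF-kB target genes, against 0.0182% of all clusters called higher. Of the 29, 10 were higher without overlap (34.5%, against 17.6% of all genes) and 1 lower (3.45%, against 5.63%), with a median of 0.13. Most members of the list differed by little: NFKBIA, the inhibitor of NF-kB, by 0.22 and TNFAIP3, the A20 brake on the pathway, by 0.16, while TNFAIP2 differed by 0.47 (adjusted p = 0.11). Among 34 immediate early genes IER3 was the one that passed. ETV5, an ETS factor downstream of MAP kinase, read 8.63, 8.71 and 8.53 at 8 h and 9.24, 9.16 and 9.29 at 24 h (difference 0.61, limma adjusted p = 0.059). SPRED2, a brake on that pathway, differed by 0.45, whereas FOS, JUN and EGR1 differed by -0.02, 0.03 and 0.07. MYC differed by -0.20 ± 0.08 (adjusted p = 0.33) and stayed above its untreated mean at both times.

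**Figure D3:**
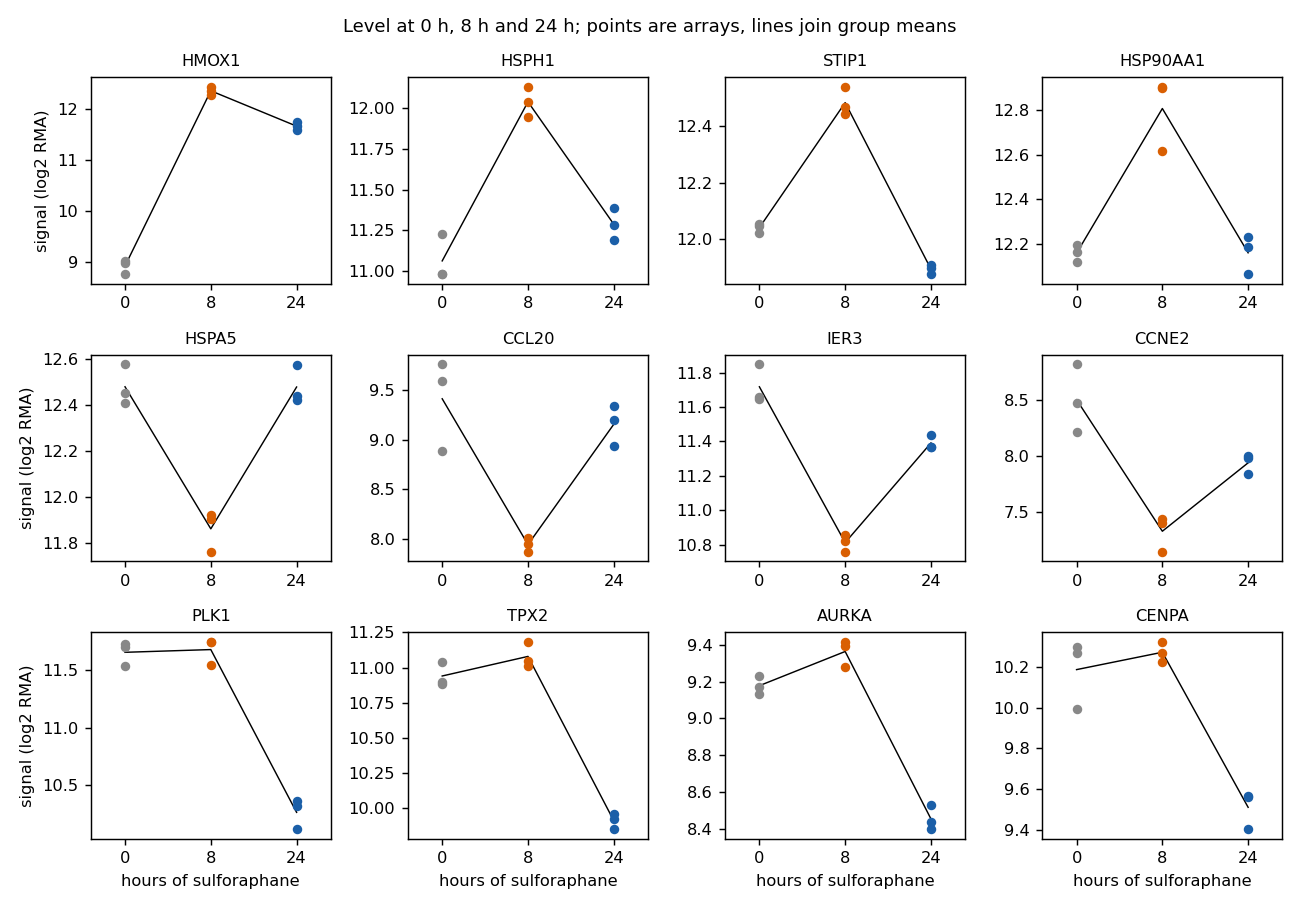
Signal (vertical axes, log2 RMA, each panel with its own range) of 12 genes at 0 h (untreated), 8 h and 24 h (horizontal axes, not to scale in time), with 1 point per array and lines joining group means. HSPH1, STIP1 and HSP90AA1 peak at 8 h, HSPA5, CCL20, IER3 and CCNE2 are lowest at 8 h, and PLK1, TPX2, AURKA and CENPA are lowest at 24 h.

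Each of the 25 called clusters was placed by its level against the untreated arrays, as a description. Returning means that the 8 h arrays stood clear of the untreated arrays and the 24 h mean was nearer to the untreated mean. This held for 4: CCL20 and IER3, which rose, and STIP1 and cluster 3545466, which fell. Appearing means that the 8 h mean was within the untreated range and the 24 h arrays stood clear of it. This held for 10, namely 8 falls (PLK1, MKI67, NDC80, KNL1, TOP2A, NUF2, CENPA and KIF18A) and 2 rises (CLDN16 and cluster 2831999). AURKB and CDCA3 continued away from the untreated level, 5 crossed to its other side, and 4 met none of these descriptions. Without untreated replicate 2, the counts were 4 returning, 7 appearing, 4 continuing, 6 crossing and 4 other. Over the 72 clusters of the fit of 9 arrays there were 18 returning, 11 of them higher at 24 h than at 8 h, and 22 appearing, all of them lower.

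Clusters without a single gene symbol gave 5 of the calls. Cluster 2831999 was dim and rose by 1.09 ± 0.07, from 3.80, 3.79 and 3.74 to 4.96, 4.72 and 4.91. Its untreated arrays spanned 3.17 to 3.95. Clusters 2830638, 4052881 and 3402571 fell by 1.37 ± 0.12, 1.10 ± 0.09 and 0.79 ± 0.07. Cluster 3545466 fell by 0.70 ± 0.06, from 10.95 at 8 h to 10.25 at 24 h, against 10.21 untreated. No single gene can be assigned to these clusters. Cluster 2830638 is annotated to KIF20A, which is on the mitosis list, and CDC23. Cluster 4052881 is annotated to FAM72A, FAM72B, FAM72C and FAM72D, and cluster 3402571 to NCAPD2, SCARNA10 and FADS1. Clusters 2831999 and 3545466 carry no symbol.

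Lists of interferon, death and p53 genes had no member called in the fit of 6 arrays. All genes leaned toward higher values at 24 h, with 17.6% higher and 5.63% lower without overlap, and the counts below are to be read against these shares. Of 36 interferon-stimulated genes, 13 were higher (36.1%) and 2 lower (5.56%) without overlap, and 8 higher and 1 lower had an unadjusted p below 0.05. SAMD9L differed by 0.45 and IFI44L, read as 9.89 ± 0.07 at 8 h and 10.33 ± 0.12 at 24 h, by 0.44 (limma adjusted p = 0.12). Of 21 genes for death ligands, their receptors and the BCL2 family, 12 were higher (57.1%) and 0 lower without overlap, with 7 at an unadjusted p below 0.05. Their median of 0.16 became 0.08 with quantile normalization. BID, which links death receptors to mitochondria, differed by 0.20 and TNFSF10, the ligand TRAIL, by 0.29 (adjusted p = 0.20). Of 24 p53 target genes, 6 were higher (25%) and 1 lower (4.17%) without overlap, near the shares of all genes, and 6 had an unadjusted p below 0.05. Their median of 0.15 became 0.08 with quantile normalization. TP53I3 differed by 0.43 and the arrest gene CDKN1A by 0.09 (adjusted p = 0.81).

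Of 33 genes linked to quiescence, 11 were higher without overlap (33.3%, against 17.6% of all genes) and 1 lower (3.03%, against 5.63%), and 7 had an unadjusted p below 0.05. TSC22D3, a leucine zipper gene also induced by glucocorticoids, measured 9.25, 9.21 and 9.27 at 8 h and 9.60, 9.57 and 9.62 at 24 h, a difference of 0.36 ± 0.04 (limma adjusted p = 0.059, and 0.047 with 9 arrays). TXNIP, which binds thioredoxin and limits glucose uptake, differed by 0.61 ± 0.11 (adjusted p = 0.12). YPEL5 differed by 0.84 ± 0.16, the largest of the list, with 11.18, 10.57 and 10.79 at 24 h against 10.04, 9.93 and 10.04 at 8 h (adjusted p = 0.12).

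Metabolic lists showed single genes on either side. In the amino acid response driven by ATF4, PHGDH, the first enzyme of serine synthesis, measured 8.92, 8.99 and 8.88 at 8 h and 8.47, 8.42 and 8.38 at 24 h, a difference of -0.50 ± 0.05 (limma adjusted p = 0.057, and 0.043 with 9 arrays). SLC7A5, the leucine transporter, differed by -0.41 ± 0.07 (adjusted p = 0.12). Among 23 sterol and fatty acid genes, TM7SF2, a sterol reductase, differed by 0.40 ± 0.05 (adjusted p = 0.059) and FADS2, a fatty acid desaturase, by -0.42. Of the MHC class II genes, HLA-DMB, a peptide loader, differed by 0.58 ± 0.07 (adjusted p = 0.059) and the transactivator CIITA by -0.29. List medians were -0.03 for the ATF4 response, -0.10 for sterols and 0.14 for MHC class II, and 0 members of these lists passed with 6 arrays. At an unadjusted p below 0.05, the ATF4 list had 1 higher and 3 lower of 29 measured members. The sterol list had 3 and 6 of 23, and the MHC class II list 4 and 1 of 11. Over all 22011 clusters, 2409 were higher and 996 lower at that threshold.

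Lists for B-cell receptor signalling, B-cell factors, proteasome subunits, autophagy, glycolysis, ribosome biogenesis, aminoacyl-tRNA synthetases, the respiratory chain and the KEAP1, BACH and MAF regulators had no called member in the fit of 6 arrays or in that of 9. Their medians lay between -0.01 and 0.11. Their members at an unadjusted p below 0.05 ranged from 0 of 9 for the KEAP1 regulators to 7 of 18 for the synthetases. Those 7 were 4 higher and 3 lower. Of all 22011 clusters, 3405 had an unadjusted p below 0.05.

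**Figure D4:**
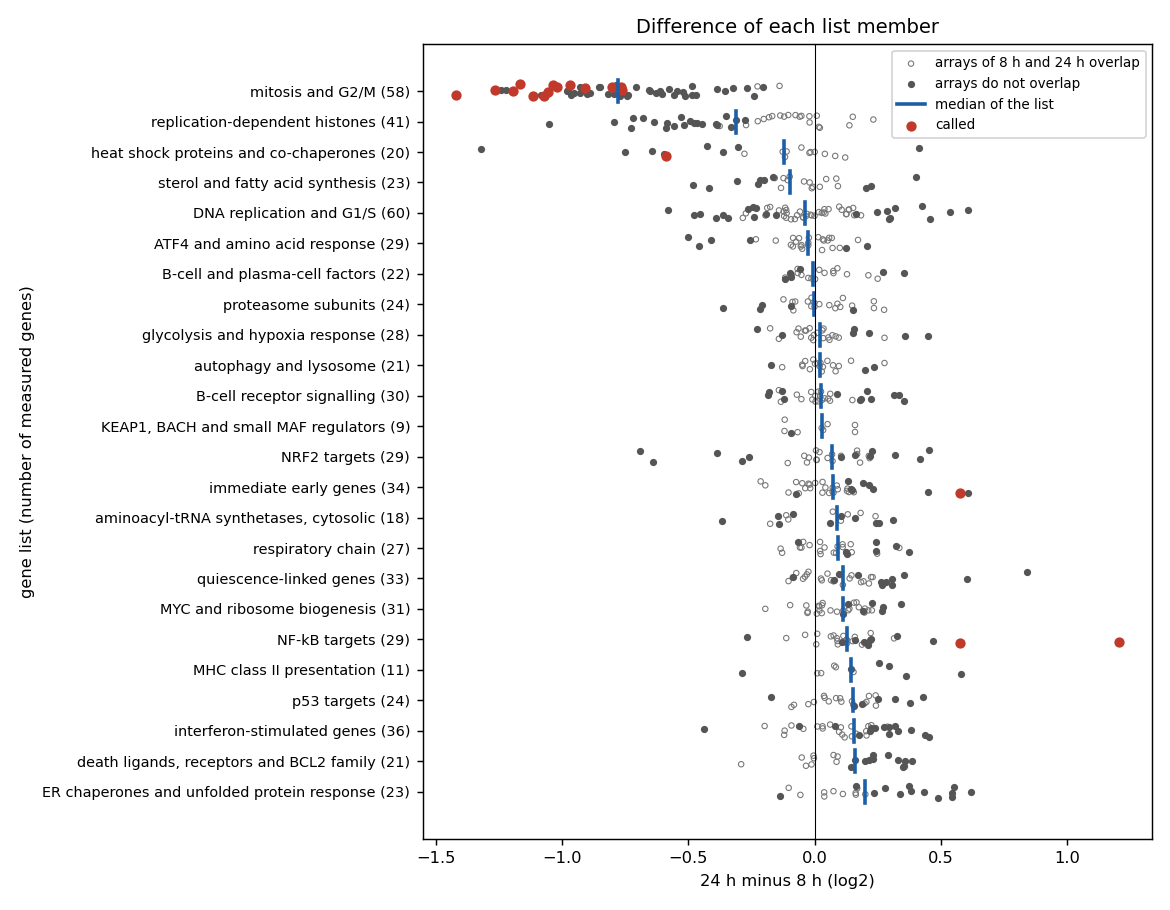
Difference between 24 h and 8 h (horizontal axis, log2) of each measured member of 24 gene lists (vertical axis, number of members in brackets, points spread vertically for legibility); filled points have no overlap between times, red points passed the test and blue bars are list medians. The mitosis list lies wholly below 0 with a median of -0.78, and the ER chaperone list has a median of 0.20, the highest on the deposited values but not with quantile normalization.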

How the data were processed

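Gene expression was measured in 9 cultures of GM12878 cells, 3 per time, with RNA taken from each culture. The authors summarised the probes of core transcript clusters with gene-level RMA and sketch-quantile normalization in Affymetrix Expression Console, per the labels. The deposited values are log2 signals. No software version, annotation release or genome build is given in the sources used here. Groups came from the sample titles. The 3 arrays at 24 h and 3 at 8 h entered limma 3.58.1 under R 4.3.3 (lmFit and eBayes, two-sided, Benjamini-Hochberg over 22011 clusters, called at an adjusted p below 0.05). A p-value measures the spread between cultures of 1 line. No cluster was filtered out. A gene is a cluster with a single symbol in the platform annotation (14432 clusters, 14232 genes); for 197 symbols with several clusters the brightest stood for the gene. Symbols in that annotation can be old. Arrays give no counts, and 3 arrays per group limit the precision.

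The comparison, gene lists and alternatives were chosen with earlier results of these data known. Named were up to 15 called rises and falls without overlap, up to 4 called members per list or the 2 with the smallest p, a panel of stress and cell-cycle genes, and up to 3 called clusters without a symbol in each direction. Other genes given with values, such as KIF18A, CDC20, FOXM1, MANF and YPEL5, were chosen after their values were seen. Alternatives were a fit of 9 arrays, a replicate block, dim clusters left out, quantile normalization, centring, variance models, array weights, averaging by symbol, stricter thresholds and leaving out each array. The workflow was tested on simulated data. Promoter sequences were matched by gene ID or symbol to RefSeq (GRCh38.p14), which gave 11386 of 14232 genes. Over the genes that fell, 13 of 17 had a sequence, under the 80% needed, so no motif share is given for them.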

Additional observations from a re-analysis of the deposited data

How the results depend on the processing

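All 25 called clusters kept their direction without any 1 of the 6 arrays, as clusters without overlap must. The count of 25 moved by over 1.5 times under most alternatives. It was 72 with all 9 arrays, 131 (34 higher) with quantile normalization, 125 (31 higher) with arrays centred on their medians and 1582 (992 higher) with array weights. It was 163 (64 higher) and 318 (172 higher) without the dimmest 25% and 50% of clusters, and 57 without the 761 clusters that held 3 equal arrays in a treated group, an alternative chosen after seeing the data. All 25 passed under quantile normalization, centring, trend, array weights and the exclusion of equal arrays, as did the 24 tested in both fits without dim clusters. It was 0 at an adjusted p below 0.01 and 0 in each fit that left out 1 of the 6 arrays (smallest adjusted p 0.058 to 0.23). With the replicate block it was 0 (smallest limma adjusted p 0.18, with 3374 at an unadjusted p below 0.05). Deviations of same-numbered 24 h and 8 h arrays from their group means correlated across clusters at 0.01, -0.025 and 0.0064. Replicate 2 had the lowest upper-quartile signal in each group, 9.51 at 24 h, 9.42 at 8 h and 9.28 untreated. Whether the replicate numbers mark cultures handled together was not tested. The called mitosis genes numbered 0 with the replicate block, 0 without any 1 array, 40 with quantile normalization and 38 with centring.

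In the fit of 9 arrays, also varied after seeing the data, the 72 became 16, 11 and 18 without 24 h replicates 1 to 3, 4, 46 and 10 without 8 h replicates 1 to 3, and 53, 160 and 30 without untreated replicates 1 to 3. Positions over its clusters were 18 returning, 22 appearing, 5 continuing, 13 crossing and 14 other. Leaving out 1 untreated array gave 4 to 5 returning, 5 to 8 appearing, 2 to 4 continuing, 5 to 9 crossing and 4 to 6 other among the 25. The cause of these shifts was not tested. Of 77 named genes and clusters, 1 changed sign: GCLM ranged from -0.046 to 0.20 over the fits without 1 array. Medians of the autophagy, glycolysis, B-cell receptor and KEAP1 regulator lists, all near 0, changed sign under rescaling.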

Other observations

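Some genes outside the lists passed in the fit of 9 arrays but not in the fit of 6 arrays, and were chosen here after their values were seen. KCND2, a potassium channel subunit of the Kv4 family, measured 8.60, 8.52 and 8.36 at 8 h and 9.89, 9.51 and 9.79 at 24 h, against 9.61, 9.06 and 9.60 untreated. Its difference was 1.24 ± 0.12 (limma adjusted p = 0.052, and 0.034 with 9 arrays), and the 24 h arrays lay in or just above the untreated range. INA, a neuronal intermediate filament, differed by 1.11 ± 0.12, from 7.69, 7.63 and 7.95 to 9.04, 8.70 and 8.88, while its untreated arrays all held 8.18. GATM, the first enzyme of creatine synthesis, averaged 9.31 at 8 h and 10.11 at 24 h, against 10.31 untreated. The phosphatase gene DUSP23 differed by 0.57 and the desmosome gene DSG1 by 0.66.

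On the lower side, several genes of division that the mitosis list does not hold passed in the fit of 9 arrays. CEP55, which recruits the abscission machinery, differed by -0.97, the formin DIAPH3 by -0.93, the replication initiator TICRR by -0.83 and the CDK-associated phosphatase gene CDKN3 by -0.80. PTBP1, a splicing repressor, differed by -0.41. The largest difference of all clusters that passed in either fit belonged to the dim cluster 3392880, which has no single gene symbol. It read 5.78, 6.44 and 5.86 at 8 h and 3.93, 3.08 and 3.50 at 24 h, 5.75-fold lower (limma adjusted p = 0.059, and 0.049 with 9 arrays), with untreated arrays from 4.77 to 6.29.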
